A study of Homo sapiens with 12 samples.

Results

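The genes described here are 9 that encode the intermediate filament proteins of the neural lineage, from progenitor to neuron. They were chosen by name, with earlier results of these data known. The 9 are NES (nestin), VIM (vimentin), SYNM (synemin), GFAP (glial fibrillary acidic protein), INA (α-internexin), NEFL, NEFM and NEFH (the light, medium and heavy neurofilament chains) and PRPH (peripherin). All 9 were found among the 58302 genes of the count tables, and 8 passed the minimum of a mean of 20 counts over the samples, PRPH being the exception. RNA was sequenced from 12 samples of H1 cells, a human embryonic stem cell line, in 6 groups of 2 samples. WT cells were unedited, and dKO cells lacked the catalytic JmjC sites of JMJD3 (KDM6B) and UTX (KDM6A), the demethylases of histone H3 lysine 27. The dKO cells were made with CRISPR, JMJD3 first and UTX second, and Cre took out the resistance cassette of the first step before the second. Whether the dKO cells are 1 clone is not stated in the sources used here. Neural progenitor cells (NPCs) were induced by inhibiting both SMAD pathways, picked as rosettes and grown as spheres with bFGF and EGF, and were sequenced as WT NPCs, dKO NPCs, and WT and dKO NPCs at passage 4. The sample labels give passage 4, whereas passage 2 of the other NPCs comes from the text of the study. WT-D28 and dKO-D28 cells were NPCs kept for 28 days without those growth factors, in medium with GDNF, BDNF and cAMP. Nothing states that the 2 samples of a group came from separate cultures, so p-values measure the spread between these samples, which may be technical. No batch is given, so batches and groups cannot be told apart.

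Intermediate filaments are rope-like polymers whose subunits change as a neural cell matures. Progenitors build them from vimentin, with nestin and synemin as large partners that need another subunit to polymerise, and astrocytes add GFAP. Young neurons make α-internexin, which joins the neurofilament chains in axons, where NEFL forms the core and the long tails of NEFM and NEFH space the filaments. Peripherin is best known from neurons that send axons out of the brain and spinal cord.

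The start regions of 4 members are shown because INA and SYNM were both upregulated from WT NPCs to WT-D28, whereas NES and VIM are the progenitor pair. RefSeq start regions (GRCh38.p14) were matched by symbol for 5 of the 9 members: NES, VIM, SYNM, INA and PRPH. The RefSeq start of SYNM lies inside the gene as GENCODE draws it, since GENCODE places its first exon further upstream. The 250 bases upstream of the start, written 5′ to 3′ on the gene's own strand, lie at chr10:103276888-103277137 (+) for INA, chr15:99104830-99105079 (+) for SYNM, chr1:156677408-156677657 (-) for NES and chr10:17227991-17228240 (+) for VIM. Capitals mark every match, on either strand, to the E-box CAGNTG, the GC box GGGCGG, the CCAAT box CCAAT, the TATA box TATAAA or the AP-1 site TGANTCA.
INA: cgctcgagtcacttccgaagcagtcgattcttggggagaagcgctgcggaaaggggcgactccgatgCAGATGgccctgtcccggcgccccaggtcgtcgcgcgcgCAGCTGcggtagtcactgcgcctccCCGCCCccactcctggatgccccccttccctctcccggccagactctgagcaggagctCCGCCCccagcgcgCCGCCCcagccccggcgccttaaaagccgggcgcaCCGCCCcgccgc
SYNM: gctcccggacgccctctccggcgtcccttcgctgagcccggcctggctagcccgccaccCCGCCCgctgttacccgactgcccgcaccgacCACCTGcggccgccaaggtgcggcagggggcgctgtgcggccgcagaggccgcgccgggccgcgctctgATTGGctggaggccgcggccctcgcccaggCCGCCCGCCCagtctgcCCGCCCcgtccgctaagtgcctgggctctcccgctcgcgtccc
NES: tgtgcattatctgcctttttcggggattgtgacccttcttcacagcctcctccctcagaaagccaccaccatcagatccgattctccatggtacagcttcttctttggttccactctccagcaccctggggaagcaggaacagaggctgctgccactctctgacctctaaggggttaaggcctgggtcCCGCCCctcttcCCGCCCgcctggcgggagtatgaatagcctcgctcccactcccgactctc
VIM: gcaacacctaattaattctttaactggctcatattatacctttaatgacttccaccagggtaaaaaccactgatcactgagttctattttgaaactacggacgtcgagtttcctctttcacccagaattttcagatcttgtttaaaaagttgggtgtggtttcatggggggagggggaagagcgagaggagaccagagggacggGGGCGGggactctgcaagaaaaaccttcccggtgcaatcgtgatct

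INA held 30 CpG and SYNM 34 CpG in these 250 bases, and NES and VIM held 8 CpG each. Of 35116 start regions of the same length, 12.4% held as many CpG as INA, 6.84% as many as SYNM and 56.3% as many as NES or VIM, with a median of 11 CpG. GC boxes were matched 4 times in INA, 4 times in SYNM, where 2 of them overlap, 2 times in NES and 1 time in VIM, and 42.6% of all start regions held at least 1. E-boxes were matched 2 times in INA and 1 time in SYNM, a motif found in 42.5% of all start regions. The CCAAT box was matched 1 time, in SYNM, and is held by 32.0% of all start regions. Neither TATAAA (10.7% of all) nor TGANTCA (6.57%) was matched in these 4 windows. These matches describe letters and not sites that a factor was shown to use.

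Levels are CPM, which scales each count to its library's size after TMM, and a member was called upregulated or downregulated at p below 0.05 and a fold change above 2 in edgeR's quasi-likelihood test. Totals lay between 756942 counts (WT NPCs) and 10601172 counts (WT-D28), so that 3 counts equal 0.283 to 3.96 CPM. This floor covers counting error only. The 2 dKO-D28 samples stood apart from each other, with a chi-square of 14.1 per degree of freedom against 1.57 to 3.31 within the other groups. KDM6A lay between 43.7 and 60.3 CPM in WT cells and between 27.3 and 58.4 CPM in dKO cells, and KDM6B between 115 and 202 CPM and between 144 and 185 CPM. These counts cover whole genes and therefore do not check the deletion of the catalytic sites. The neuron markers (MAP2, TUBB3, DCX, STMN2, RBFOX3, ELAVL3, ELAVL4, SNAP25 and SYT1) summed to 1243 to 1435 CPM in WT NPCs, 3876 to 3895 CPM in WT-D28, 997 to 1094 CPM in dKO NPCs and 642 to 1156 CPM in dKO-D28. WT NPCs at passage 4 already held 4491 to 5093 CPM of them, above WT-D28, whereas dKO NPCs at passage 4 held 810 to 835 CPM. In WT NPCs at passage 4, MAP2 (1625 and 1872 CPM against 1125 and 1098 CPM), DCX, RBFOX3, ELAVL4 and SNAP25 lay above WT-D28. STMN2 (1014 and 1061 CPM against 1233 and 1271 CPM), ELAVL3 and TUBB3 lay below it, and the SYT1 samples overlapped. The progenitor markers (SOX1, SOX2, PAX6, HES1, HES5, FABP7 and PROM1) summed to 1223 to 1348 CPM in WT NPCs, 1024 to 1066 CPM in dKO NPCs, 2635 to 2745 CPM in WT NPCs at passage 4, 713 to 736 CPM in dKO NPCs at passage 4, 1065 to 1079 CPM in WT-D28 and 1063 to 1086 CPM in dKO-D28. HES5 was at 0 in dKO NPCs at both passages. It was near the limit of counting in WT cells too, with 2 and 2 counts in WT NPCs and 0 and 2 counts in WT NPCs at passage 4. Most of the sum in WT NPCs at passage 4 was FABP7, at 1861 and 1700 CPM. It had 127 and 109 CPM in WT NPCs and 85.8 and 78.0 CPM in dKO NPCs at passage 4. Of 6 tested progenitor markers, 1 was upregulated and 3 were downregulated between WT passages (all genes 10.3% and 9.49%). In dKO against WT NPCs at passage 4, 1 was higher and 2 were lower (all genes 11.1% and 11.2%). The like sums at day 28 hold unlike members. PAX6 had 11.7 and 11.5 CPM in WT-D28 and 187 and 351 CPM in dKO-D28, and PROM1 had 2.84 and 2.98 CPM and 74.2 and 108 CPM. In bulk RNA, fewer cells of a type and less RNA per cell cannot be told apart.

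From WT NPCs to WT-D28, 3 of the 8 tested members were upregulated, SYNM, GFAP and INA, and none was downregulated, whereas of all genes tested 24.4% were called, 12.9% up and 11.5% down. From dKO NPCs to dKO-D28, none was upregulated and 2 were downregulated, NES and VIM, against 7.14% of all genes called, 4.01% up and 3.14% down. At an unadjusted p under 0.05 with no fold threshold, edgeR gave 3 members up and 2 down in the WT progression and 0 up and 3 down in the dKO progression, and DESeq2 called 3 up and 1 down, and 0 up and 2 down. The change in dKO cells minus the change in WT cells was itself past the threshold for 3 members, SYNM, GFAP and INA, all towards lower values in dKO cells (all genes 23.2%, with 12% higher and 11.1% lower). At day 28, 3 members were downregulated in dKO cells against WT cells, again SYNM, GFAP and INA (all genes 24.2%, 12.4% up and 11.7% down). At passage 4, SYNM, GFAP and INA were downregulated and NEFM was upregulated in dKO cells, 4 members in all (all genes 22.3%, 11.1% up and 11.2% down). At passage 2, 1 member was called, SYNM, which was upregulated in dKO NPCs (all genes 4.42%, 2.59% up and 1.83% down). Between passages, SYNM, GFAP and INA were upregulated in WT NPCs, 3 members (all genes 19.8%, 10.3% up and 9.49% down). In dKO NPCs, 1 member, NES, was downregulated between passages (all genes 9.83%, 4.61% up and 5.22% down). The difference between these passage changes was past the threshold for 3 members, SYNM, GFAP and INA, all lower in dKO cells (all genes 19.3%, 9.72% higher and 9.57% lower). A count of 3 among 8 members lies above the shares of all genes given beside it, but rests on few genes. The members were also chosen with earlier results known, and comparisons that share a group of samples are not independent. Nothing is therefore read from these counts about the members as a group. The median log2 fold change of the 8 tested members was -0.39 from WT NPCs to WT-D28 and -0.39 between dKO-D28 and WT-D28, against 0.04 and 0.00 over all genes tested.

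**Figure D1:**
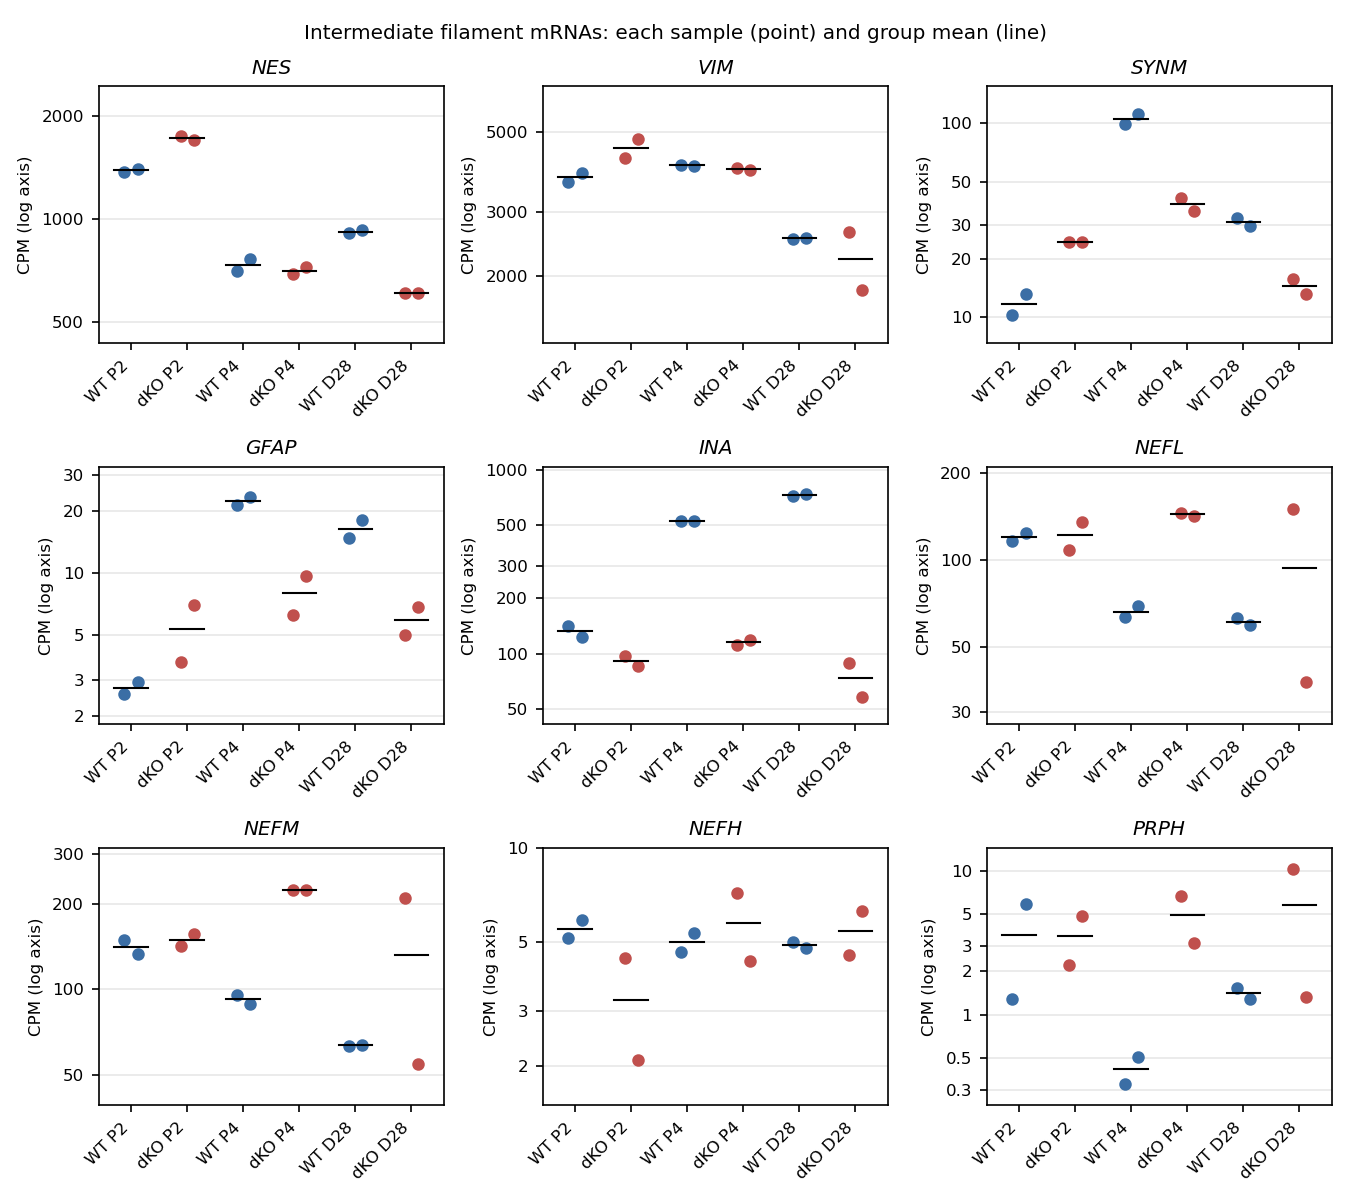
CPM of each of the 9 genes (log axis, a scale of its own in each panel) in the 6 groups at passage 2 (P2), passage 4 (P4) and day 28 (D28). Points are the 2 samples of a group, blue for WT and red for dKO, and the line is their mean; INA stood at 123 to 141 CPM in WT NPCs, 725 and 740 CPM in WT-D28 and 57.8 to 118 CPM in every dKO sample.

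NES and VIM, the progenitor pair, took more counts than any other member in every group, on the CPM scale that does not divide by gene length. NES (chr1:156668763-156677407, minus strand, 4 exon blocks) had 1376 and 1407 CPM in WT NPCs, 1754 and 1708 CPM in dKO NPCs, 704 and 766 CPM in WT NPCs at passage 4, 692 and 725 CPM in dKO NPCs at passage 4, 910 and 930 CPM in WT-D28, and 610 and 608 CPM in dKO-D28. Every passage 2 sample thus lay above every later sample, and the order of the group means was dKO NPCs, WT NPCs, WT-D28, the 2 passage 4 groups, whose samples overlap, and dKO-D28. From NPCs to day 28, NES was downregulated in dKO cells (log2 fold change -1.51, standard error (SE) 0.09, edgeR adjusted p = 1.31e-07), whereas the change of -0.60 in WT cells (SE 0.09, edgeR adjusted p = 6.41e-05) did not reach a fold of 2. The dKO call was lost under the full-quantile correction of GC content and length, at -0.08. The difference between these changes was -0.90 (SE 0.13, edgeR adjusted p = 7.53e-05), also under a fold of 2. Between passages, NES changed by -1.29 in dKO NPCs (SE 0.09, edgeR adjusted p = 2.45e-07), past the threshold, and by -0.93 in WT NPCs (SE 0.09, edgeR adjusted p = 1.42e-06), under it, and under the full-quantile correction the dKO value was -0.30, not called. At passage 4 the genotypes differed in NES by -0.05 on the log2 scale, with a 95% interval of -0.23 to 0.13.

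Between the NES levels and those of dividing cell markers there was no common order. MKI67, TOP2A, CCNB1, BUB1 and CDK1 summed to 1402 to 1508 CPM in both groups of passage 2 NPCs, 1309 to 1515 CPM in WT NPCs at passage 4, 861 to 904 CPM in dKO NPCs at passage 4, 316 to 330 CPM in WT-D28 and 1168 to 1409 CPM in dKO-D28. The dKO-D28 samples therefore held the lowest NES with a dividing cell sum above 1000 CPM, and the WT-D28 samples held more NES with the lowest sum. The part of dividing cells in the NES levels was not tested.

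VIM (chr10:17228241-17237593, plus strand, 9 exon blocks), the main subunit of progenitor filaments and of many mesenchymal cells, had 3647 and 3856 CPM in WT NPCs, 4240 and 4787 CPM in dKO NPCs, 4056 and 4032 CPM in WT NPCs at passage 4, 3969 and 3925 CPM in dKO NPCs at passage 4, 2527 and 2550 CPM in WT-D28, and 2637 and 1823 CPM in dKO-D28. By mean CPM it ranked between 3 and 17 among all genes in the 6 groups. The 4 day 28 samples lay below all 8 NPC samples. VIM was downregulated from dKO NPCs to dKO-D28 at a fold barely above 2 (log2 fold change -1.02, SE 0.13, edgeR adjusted p = 0.000103), and the value was -0.77 without dKO-D28 replicate 2 and -0.93 without dKO NPC replicate 2, both under a fold of 2, and -0.04 under the full-quantile correction. In WT cells it changed by -0.57 (SE 0.13, edgeR adjusted p = 0.00246), and the difference between the genotypes' changes was -0.45 (95% interval -0.82 to -0.08, edgeR adjusted p = 0.0839). dKO-D28 and WT-D28 differed by -0.18 with an interval of -0.44 to 0.08, and their samples overlap. Mesenchyme markers (COL1A1, COL1A2, COL3A1, LUM, DCN, PDGFRB and TWIST1), which could bring VIM of another source, summed to 149 to 374 CPM in WT NPCs and 847 to 1022 CPM in dKO NPCs, to 248 to 258 CPM in WT and 1695 to 1714 CPM in dKO NPCs at passage 4, and to 193 to 206 CPM in WT-D28 and 293 to 399 CPM in dKO-D28. Of these 7 markers, DCN was at 0 in WT NPCs, and DCN and TWIST1 were at 0 in dKO NPCs. The passage 4 groups thus differed most in the sum of these markers, whereas their mean VIM was 4044 CPM in WT and 3947 CPM in dKO cells. Of 5 tested markers, 3 were called higher and 0 lower in dKO NPCs at passage 4 (all genes 11.1% and 11.2%). DCN (5.61 and 3.55 CPM in WT, 1.38 and 0.483 CPM in dKO cells) and PDGFRB (41.9 and 39.1 CPM, 28.6 and 38.6 CPM) went against that sum. COL1A1, COL1A2, COL3A1, LUM and TWIST1 went with it. At day 28, COL3A1 (51.5 and 54.9 CPM in WT, 18.4 and 7.22 CPM in dKO cells) and PDGFRB (91.6 and 97.7 CPM, 38.4 and 16.3 CPM) went against the sum. Their part in the VIM levels was not tested.

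SYNM and GFAP, both partners of vimentin filaments, had their highest levels in WT NPCs at passage 4. SYNM (chr15:99098217-99135593, plus strand, 5 exon blocks) had 10.3 and 13.2 CPM in WT NPCs, 24.4 and 24.4 CPM in dKO NPCs, 99.3 and 111 CPM in WT NPCs at passage 4, 41.0 and 35.5 CPM in dKO NPCs at passage 4, 32.4 and 29.4 CPM in WT-D28, and 15.7 and 13.1 CPM in dKO-D28. The WT order was thus passage 4 over day 28 over passage 2, and only WT NPCs and dKO-D28 overlapped among neighbours in the order of means. SYNM was upregulated from WT NPCs to WT-D28 (log2 fold change 1.35, SE 0.24, edgeR adjusted p = 0.00024) and, at 3.12, more steeply to passage 4 (SE 0.22, edgeR adjusted p = 2.67e-08). In dKO cells it changed by -0.76 to day 28 (SE 0.21, edgeR adjusted p = 0.0289), under a fold of 2, and the genotypes' changes differed by -2.11 (SE 0.32, edgeR adjusted p = 0.000115). The sign of the genotype difference depended on the stage. SYNM was higher in dKO NPCs than in WT NPCs by 1.01 (SE 0.28, edgeR adjusted p = 0.0659), and lower at passage 4 (-1.46, SE 0.14, edgeR adjusted p = 5.26e-07) and at day 28 (-1.10, SE 0.16, edgeR adjusted p = 2.53e-05). The first rests on 26 counts in WT NPCs and 68 in dKO NPCs, lost its call in 6 of 14 alternatives and was 0.88 without WT NPC replicate 1. The day 28 difference fell under a fold of 2, at -0.96, without dKO-D28 replicate 2.

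GFAP (chr17:44903159-44916937, minus strand, 9 exon blocks), the filament protein of astrocytes and of human radial glia, was scarce throughout. It had 2.57 and 2.93 CPM in WT NPCs (2 and 4 counts), 3.69 and 6.96 CPM in dKO NPCs, 21.4 and 23.4 CPM in WT NPCs at passage 4, 6.23 and 9.66 CPM in dKO NPCs at passage 4, 14.7 and 18.0 CPM in WT-D28, and 5.01 and 6.84 CPM in dKO-D28. All 4 later WT samples lay above all 8 others. The ratio of pooled counts was 5.88 for WT-D28 over WT NPCs, with an exact 95% interval of 2.67 to 16.2 for counting error only. GFAP was upregulated in WT cells to day 28 (log2 fold change 2.53, SE 0.46, edgeR adjusted p = 0.000294) and to passage 4 (2.98, SE 0.45, edgeR adjusted p = 8.29e-05). In dKO cells, the change to day 28 was 0.16 with a 95% interval of -0.66 to 0.97, and the genotypes' changes differed by -2.37 (SE 0.67, edgeR adjusted p = 0.0131). GFAP was lower in dKO cells at passage 4 (-1.49, SE 0.27, edgeR adjusted p = 0.000225) and at day 28 (-1.44, SE 0.26, edgeR adjusted p = 0.000212). At passage 2 the difference was 0.93 with an interval of -0.29 to 2.15, so that neither direction could be shown at this depth.

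Astrocyte markers other than GFAP (AQP4, S100B, ALDH1L1, SLC1A2, GJA1, GJB6, FGFR3 and SPARCL1) had their highest WT sum in WT-D28, and 1 gene made up most of the increase. They summed to 349 to 366 CPM in WT NPCs, 477 to 512 CPM in WT NPCs at passage 4 and 1052 to 1061 CPM in WT-D28, where 7 of the 8 had counts and GJB6 was at 0. SPARCL1, a secreted matrix protein, went from 6.42 and 8.80 CPM in WT NPCs to 92.4 and 91.9 CPM at passage 4 and 670 and 701 CPM in WT-D28, and without it the sums were 343 to 357 CPM, 384 to 421 CPM and 360 to 382 CPM. AQP4 had 13.4 and 13.1 CPM in WT-D28 against 1.67 and 1.52 CPM in dKO-D28. Of the 6 tested markers, 4 were upregulated from WT NPCs to WT-D28 (all genes 12.9%). In dKO-D28 against WT-D28, 5 were lower and 1 was higher (all genes 11.7% and 12.4%). The sums in dKO cells, 657 to 697 CPM at passage 4 and 300 to 796 CPM at day 28, did not follow GFAP, and GJA1, a gap junction gene, made up 246 and 738 CPM of the dKO-D28 sums. The part of astrocytes in the GFAP levels was not tested.

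INA (chr10:103277138-103290346, plus strand, 3 exon blocks), the filament subunit of young neurons, showed the largest genotype difference of the members at day 28. It had 141 and 123 CPM in WT NPCs, 97.5 and 85.6 CPM in dKO NPCs, 525 and 528 CPM in WT NPCs at passage 4, 112 and 118 CPM in dKO NPCs at passage 4, 725 and 740 CPM in WT-D28, and 89.2 and 57.8 CPM in dKO-D28. Every WT sample exceeded every dKO sample, and the 4 later WT samples exceeded the rest by more than the whole range of the other 8. INA was upregulated in WT cells to day 28 (log2 fold change 2.48, SE 0.16, edgeR adjusted p = 1.21e-08) and to passage 4 (2.00, SE 0.16, edgeR adjusted p = 1.78e-07). In dKO cells, the corresponding changes were -0.32 (95% interval -0.66 to 0.01) and 0.33 (0.00 to 0.66), neither called. The genotypes' changes to day 28 differed by -2.80 (SE 0.24, edgeR adjusted p = 5.16e-07), and those to passage 4 by -1.67 (SE 0.23, edgeR adjusted p = 9.92e-05). INA in dKO cells was -3.32 on the log2 scale against WT cells at day 28 (SE 0.16, edgeR adjusted p = 1.5e-10), a fold of 9.99, and -2.19 at passage 4 (SE 0.15, edgeR adjusted p = 9.77e-09), a fold of 4.56. At passage 2 the difference was -0.52 (SE 0.18, edgeR adjusted p = 0.164). By mean CPM, INA moved from place 1664 among all genes in WT NPCs to place 120 in WT-D28, and from 2719 to 3404 in dKO cells. Of the neuron markers, 7 of 8 tested were upregulated from WT NPCs to WT-D28 (all genes 12.9%), and 8 of 8 were lower in dKO-D28 than in WT-D28 (all genes 11.7%). Their part in the INA levels was not tested.

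NEFL and NEFM, whose genes lie 31856 bases apart on chromosome 8, did not follow INA. NEFL (chr8:24950955-24956721, minus strand, 4 exon blocks), the core chain, had 117 and 124 CPM in WT NPCs, 109 and 136 CPM in dKO NPCs, 63.7 and 69.3 CPM in WT NPCs at passage 4, 146 and 143 CPM in dKO NPCs at passage 4, 63.0 and 59.8 CPM in WT-D28, and 150 and 38.0 CPM in dKO-D28. Both later WT groups lay below WT NPCs. NEFM (chr8:24913758-24919098, plus strand, 4 exon blocks), the medium chain, had 149 and 133 CPM in WT NPCs, 143 and 157 CPM in dKO NPCs, 95.4 and 88.8 CPM in WT NPCs at passage 4, 225 and 224 CPM in dKO NPCs at passage 4, 63.1 and 63.8 CPM in WT-D28, and 209 and 54.7 CPM in dKO-D28. The 2 dKO-D28 samples differed 3.95-fold in NEFL and 3.82-fold in NEFM, whereas in every other group the samples differed by at most 1.25-fold in either gene.

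This spread entered the shared fit. From WT NPCs to WT-D28 the log2 fold change was -0.98 for NEFL (SE 0.59, edgeR adjusted p = 0.228) and -1.15 for NEFM (SE 0.59, edgeR adjusted p = 0.16), neither called. In a fit of only the samples compared, both were called downregulated, at -1.05 for NEFL and -1.20 for NEFM. At passage 4, NEFM was 1.29 higher in dKO NPCs (SE 0.53, edgeR adjusted p = 0.0883), with an unadjusted p just under the threshold, and lost the call without any 1 of the 4 samples, with values of 1.23 to 1.34. NEFL was 1.12 higher there (SE 0.55, edgeR adjusted p = 0.136), and was called at 1.11 in a fit of only those samples. At day 28, NEFM differed between the genotypes by 1.04 (95% interval 0.02 to 2.07, edgeR adjusted p = 0.14) and NEFL by 0.60 (-0.43 to 1.63, edgeR adjusted p = 0.382). Neither day 28 difference was called by edgeR. The NEFM interval does not by itself show a difference, since 1.96 SE is narrower than the quasi-likelihood test allows. DESeq2 called NEFM at -1.17 in the WT progression, 1.27 at passage 4 and 1.06 at day 28, and NEFL at 1.10 at passage 4. Here the direction depended on a library. Without dKO-D28 replicate 2, both were called higher in dKO-D28, at 1.30 for NEFL and 1.73 for NEFM, and without dKO-D28 replicate 1 the values were -0.67 and -0.20, not called. Likewise, from dKO NPCs to dKO-D28 both were called downregulated without replicate 1 (-1.68 and -1.45), and stood at 0.30 and 0.48 without replicate 2. KRT19, a keratin described further on, also differed between these samples, at 118 CPM in replicate 1 and 273 CPM in replicate 2. What sets the 2 dKO-D28 samples apart was not tested.

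NEFH and PRPH, the heavy chain and the peripheral neuron subunit, were near the limit of counting. NEFH (chr22:29480218-29491390, plus strand, 4 exon blocks) had 247 counts over the 12 samples and between 2.09 and 7.15 CPM. Its highest and lowest sample were both dKO NPCs, and no comparison called it. From WT NPCs to WT-D28 it changed by -0.20 with a 95% interval of -1.08 to 0.68, an interval that still holds a 2-fold fall at this depth. PRPH (chr12:49295147-49298686, plus strand, 8 exon blocks) had 140 counts in all. Its samples had 1.28 and 5.86 CPM in WT NPCs, 2.22 and 4.87 CPM in dKO NPCs, 0.330 and 0.508 CPM in WT NPCs at passage 4, 6.69 and 3.14 CPM in dKO NPCs at passage 4, 1.54 and 1.29 CPM in WT-D28, and 10.3 and 1.33 CPM in dKO-D28. The passage 4 groups did not overlap, and their pooled counts were 42 in dKO NPCs and 3 in WT NPCs, a ratio of 11.5 with an exact 95% interval of 3.68 to 58.0 for counting error only. With the minimum lowered to 1 count in any sample, PRPH was called higher in dKO NPCs at passage 4 (3.41, SE 0.71, edgeR adjusted p = 1.6e-05). It was then also called higher in dKO-D28 than in WT-D28 (1.90, SE 0.45, edgeR adjusted p = 0.000201), although dKO-D28 replicate 2 fell between the 2 WT-D28 samples. In WT cells it was then called lower at passage 4 than at passage 2 (-3.10, SE 0.91, edgeR adjusted p = 0.00582) and at day 28 (-1.42, SE 0.67, edgeR adjusted p = 0.132). The dKO changes exceeded the WT changes by 3.59 between passages (SE 1.08, edgeR adjusted p = 0.0123) and by 2.09 to day 28 (SE 0.87, edgeR adjusted p = 0.113), both called. With the counts of an antisense gene added, described further on, neither difference and not the WT change to day 28 was called.

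**Figure D2:**
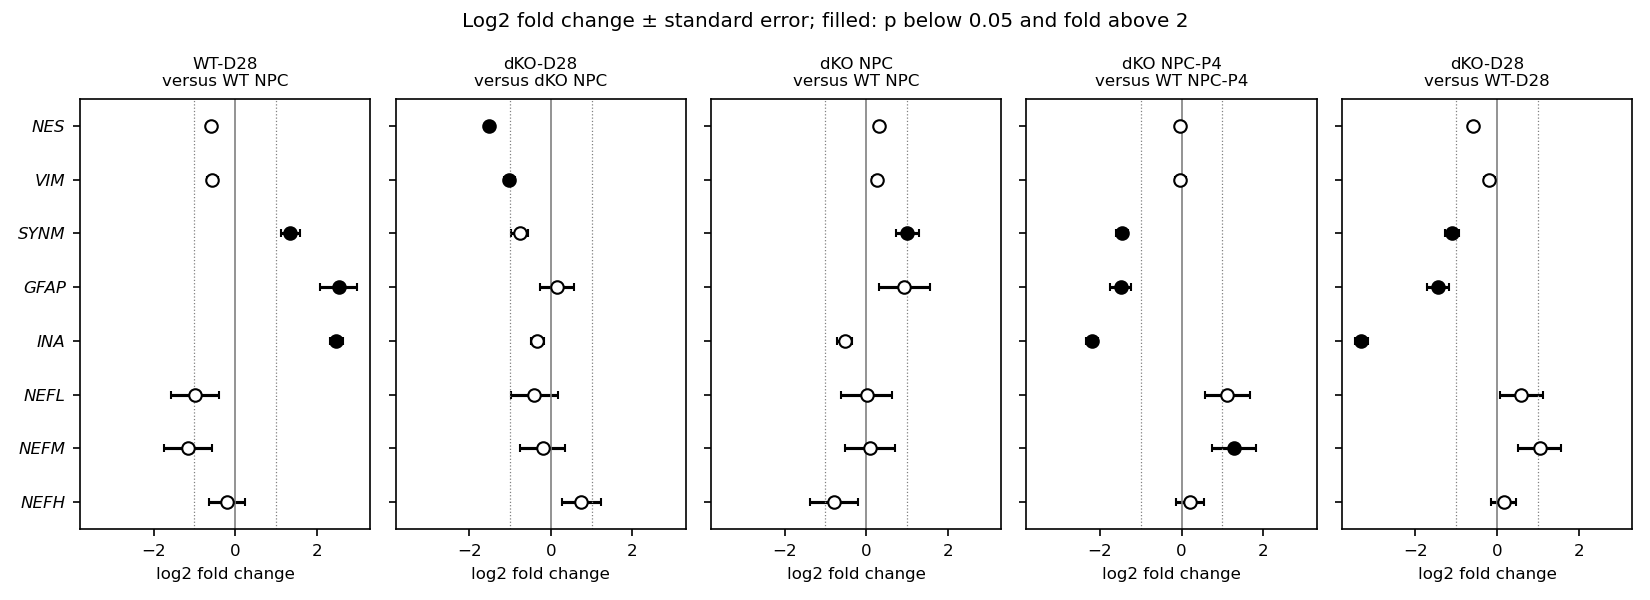
Log2 fold change with its standard error (bars) of the 8 tested genes in 5 comparisons, named above each panel. Filled points passed p below 0.05 and a fold above 2 (dotted lines at -1 and 1); SYNM, GFAP and INA lie right of 0 from WT NPCs to WT-D28 and left of 0 in dKO cells at passage 4 and day 28, with NEFL and NEFM on the opposite side and wide bars.

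To compare members with each other, counts were divided by the length of all exons of a gene, and each member was given as a share of the summed filament mRNA of its sample. In WT NPCs, VIM made up 65.9% and 67.1% of it and NES 23.1% and 22.8%. Together, NES and VIM took 89.5% ± 0.644 (SD, n = 2) in WT NPCs and 91.8% ± 0.0491 in dKO NPCs. The neuronal subunits INA, NEFL, NEFM, NEFH and PRPH held 10.4% ± 0.666 in WT NPCs, 18.1% ± 0.0679 in WT NPCs at passage 4 and 28.2% ± 0.0393 in WT-D28 (SD, n = 2). In dKO cells their share was 7.95% ± 0.0488 in NPCs and 13.3% ± 0.0453 at passage 4, and was 17.1% and 8.78% in the 2 dKO-D28 samples. Of these, INA took 4.06% and 3.41% in WT NPCs, 14.3% and 14.2% at passage 4, and 24.4% and 24.5% in WT-D28. INA stayed between 1.96% and 3.66% in all 6 dKO samples. Per length, INA thus stood above NES in the later WT groups, where NES took 11.2% and 12.1% at passage 4 and 17.8% and 18.0% in WT-D28. In WT-D28, NEFL had 1.75% and 1.64% and NEFM 1.90% and 1.89%, far below INA. In dKO NPCs at passage 4, in contrast, NEFM alone held 5.97% and 5.98%, above INA with 3.32% and 3.53%. SYNM reached at most 1.26% and GFAP at most 0.183%, both in WT NPCs at passage 4. With 2 samples against 2 an exact permutation test cannot give a p below 0.333, so the shares were not tested. They depend on the length used, and the mean INA share in WT-D28 was 19.0% with coding length. In WT NPCs, the mean NES share was 8.97% and that of VIM 84.05% with coding length, against 22.95% and 66.52%. The highest GFAP share then lay in WT-D28, at 0.535%.

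Ratios within a sample do not depend on the size of its library. They were chosen with the members' values known and are given as a description. INA per kilobase was 0.615 and 0.556 of the sum of NEFL and NEFM in WT NPCs, 3.81 and 3.86 at passage 4, and 6.68 and 6.96 in WT-D28. In dKO cells it was 0.449 and 0.340 in NPCs, 0.348 and 0.371 at passage 4, and 0.287 and 0.719 at day 28, so that INA exceeded the pair in no dKO sample. NEFM per NEFL stayed between 1.09 and 1.70 in all 12 samples, the lowest being WT-D28 (1.09 and 1.16). In the dKO-D28 samples that ratio was 1.51 and 1.56, although each gene's level differed nearly 4-fold between them. Which of the 2 genes stood higher depends on the length used. By coding length, NEFM lay below NEFL in all 12 samples, with mean shares of 0.896% and 1.46% in WT-D28. NES per VIM was 0.351 and 0.339 in WT NPCs and 0.334 and 0.339 in WT-D28. At passage 4 it was 0.161 and 0.177 in WT cells, and 0.162 and 0.172 there in dKO cells. Passage 4 thus stood apart from passage 2 and from day 28 in WT cells by this ratio, and the samples of the genotypes overlapped at passage 4. In dKO-D28 the ratio was 0.215 and 0.310.

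For each tested member, the 3 of 11824 protein-coding genes with the most similar log2 CPM over the 12 samples were listed by Pearson's r. The 12 samples form 6 groups and share library and depth, so these values describe the groups and carry no p. INA was most like CNR1 (r = 0.994), a cannabinoid receptor, ACTL6B (0.988), a subunit of the neuronal BAF complex, and SYN1 (0.988), a synaptic vesicle protein. NEFL and NEFM were each other's nearest gene (0.955), followed for NEFM by RPS27L (0.915) and TMEM14C (0.904), and for NEFL by RPS27L (0.879) and GFRA1 (0.877). NES was nearest to GLIPR1 (0.952), ENAH (0.931), a regulator of actin, and SERAC1 (0.916). The nearest genes of VIM were F2R (0.887), a thrombin receptor, GPX3 (0.886) and NT5E (0.884). SYNM lay nearest to SBF2 (0.948), ZBTB47 (0.946) and PSMG4 (0.944), and GFAP nearest to VPS26B (0.967), ST13 (0.966) and PPME1 (0.961). NEFH had the lowest values, with ABHD16B at 0.842, RPSA at 0.833 and TMEM94 at 0.827.

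Of 14 other intermediate filament genes (keratins, lamins, DES, SYNC, BFSP1 and BFSP2), 10 were tested. The shares of all genes called, given above for the members, were 12.9% up and 11.5% down in the WT progression to day 28, 4.01% up and 3.14% down in the dKO progression, and 12.4% up and 11.7% down between the genotypes at day 28, and they apply to the 3 gene lists that follow. From WT NPCs to WT-D28, 6 were downregulated and none upregulated (median log2 fold change -1.27, all genes 0.04), from dKO NPCs to dKO-D28 3 were upregulated and none downregulated (0.53, all genes 0.01), and 6 were higher and none lower in dKO-D28 than in WT-D28 (2.92, all genes 0.00). At an unadjusted p under 0.05 alone, edgeR gave 0 up, 2 down and 0 down for the directions without a call, and DESeq2 called 0 in each. Keratins, the filaments of epithelia, carried the largest of these. KRT19 had 10.3 and 13.2 CPM in WT NPCs, 0.118 and 0.497 CPM in WT-D28, 13.3 and 14.6 CPM in dKO NPCs, and 118 and 273 CPM in dKO-D28. It moved in opposite directions in the 2 genotypes, with log2 fold changes of -5.10 (SE 1.14, edgeR adjusted p = 0.00649) in WT cells and 3.81 (SE 0.49, edgeR adjusted p = 0.00171) in dKO cells. Pooled counts at day 28 were 1933 in dKO and 6 in WT cells, a ratio of 631 with an exact 95% interval of 289 to 1721 for counting error only. KRT7 fell by 3.62 on the log2 scale in WT cells (SE 1.06, edgeR adjusted p = 0.014), where WT NPC replicate 1 had 0 and replicate 2 had 5.86 CPM. At day 28 KRT7 stood at 25.5 and 38.2 CPM in dKO cells against 0.355 and 0.199 CPM in WT cells, a ratio of pooled counts of 121 (51.1 to 374). KRT17 was at 0 in both dKO NPC samples and had 42.9 and 12.4 CPM in dKO-D28, at least 24.1-fold higher against a floor of 3 counts over the group.

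Among 7 filament linkers, 6 were tested, against the same 4.01% up in the dKO progression and 12.4% up at day 28 over all genes. From WT NPCs to WT-D28, 1 was downregulated (median 0.52, all genes 0.04), from dKO NPCs to dKO-D28 3 were upregulated (0.54, all genes 0.01), and 3 were higher and 1 lower in dKO-D28 than in WT-D28 (0.39, all genes 0.00). DSP (desmoplakin), which ties keratins to cell junctions, had 62.9 and 108 CPM in WT NPCs, 0.710 and 1.69 CPM in WT-D28, 195 and 215 CPM in dKO NPCs, and 314 and 688 CPM in dKO-D28. Its pooled counts at day 28 were 4938 in dKO and 23 in WT cells, a ratio of 420 (280 to 664). It changed by -6.14 in WT cells (SE 0.68, edgeR adjusted p = 0.000285) and by 1.29 in dKO cells (SE 0.39, edgeR adjusted p = 0.0927). PPL (periplakin) rose by 2.76 in dKO cells (SE 0.34, edgeR adjusted p = 0.000163) and was 2.91 higher in dKO-D28 than in WT-D28 (SE 0.26, edgeR adjusted p = 5.72e-07). PLEC (plectin), which binds vimentin, was the linker that was lower (-1.08, SE 0.10, edgeR adjusted p = 1.33e-07).

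Of 15 genes of filament transport, turnover and modification, 14 were tested, against 12.9% up and 11.5% down over all genes in the WT progression and 11.7% down at day 28. From WT NPCs to WT-D28, 3 were upregulated and 1 downregulated (median 0.59, all genes 0.04), from dKO NPCs to dKO-D28 none was called by edgeR or by DESeq2, with 1 up and 5 down at an unadjusted p under 0.05 alone (-0.19, all genes 0.01), and 7 were lower and 1 higher in dKO-D28 than in WT-D28 (-0.81, all genes 0.00). KIF5A, the kinesin that carries neurofilaments along axons, had 150 and 101 CPM in WT NPCs, 659 and 650 CPM in WT-D28, 93.8 and 89.1 CPM in dKO NPCs, and 99.0 and 44.6 CPM in dKO-D28. It rose by 2.41 in WT cells (SE 0.33, edgeR adjusted p = 0.00058) and was -3.20 in dKO-D28 against WT-D28 (SE 0.32, edgeR adjusted p = 5.1e-05). CDK5R2, an activator of the neurofilament kinase CDK5, rose by 2.70 (SE 0.41, edgeR adjusted p = 6.46e-05) and stood at -3.09 at day 28 (SE 0.30, edgeR adjusted p = 3.37e-07). HSPB8, a small heat shock protein, moved the other way, falling in WT cells by 2.47 (SE 0.29, edgeR adjusted p = 4.79e-06) and being 1.88 higher in dKO-D28 (SE 0.24, edgeR adjusted p = 6.51e-06).

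Reads on the overlap of a gene and its antisense partner cannot be told apart here, since the labels name a TruSeq RNA kit without a stranded form and the strand setting of the counting is not given. VIM-AS1 had 0.317 to 0.427 times the counts of VIM in the 12 samples, and another antisense gene of VIM (ENSG00000234961) 0.226 to 0.261 times. SYNM-AS2 had 0.278 to 0.515 times the counts of SYNM. An antisense transcript of NEFM (ENSG00000272163) had 0.164 to 0.516 times the counts of NEFM. TROAP-AS1 shares 71.5% of the exonic bases of PRPH and had 141 counts in all against 140 of PRPH. With the antisense counts added to the members, SYNM at day 28 was -0.98, under a fold of 2, and no other call of a tested member changed. INA shares 13.9% of its exonic bases with NT5C2 and GFAP 19.9% with CCDC103, both protein-coding genes on the other strand, and NES shares none.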

How the data were processed

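RNA was extracted with TRIzol, prepared with a TruSeq RNA kit, not named as stranded, and sequenced on a NextSeq 500. Per the labels and the methods of the study, the authors mapped reads to hg38 with HISAT2 2.0.4, sorted them with SAMtools 1.3.1 and counted them with HTSeq 0.6.0. The deposited values are these counts for each Ensembl gene, unnormalized and unfiltered. The annotation release and the strand setting are not given in the sources used here. Symbols, exons and positions came from GENCODE v44 on hg38, which held 57532 of the 58302 genes and 99.8% of the counts.

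In R 4.3.3, counts were scaled with TMM and fitted with edgeR 4.0.16 (robust quasi-likelihood, 6 group means, 13454 genes whose mean count was 20 or more). Benjamini-Hochberg adjustment ran over all genes of a comparison. The SE is the log2 fold change over the square root of F, and intervals of log2 fold changes are 1.96 SE. That is a normal quantile, so these intervals are narrower than 95% intervals from the quasi-likelihood test would be. Calls rest on the test and the fold, not on the intervals. The genotype differences in change were contrasts of that fit. Shares used raw counts per kilobase of the union of a gene's exons. Alternatives were DESeq2 1.42.0, calls by adjusted p, fits of only the samples compared, other count minimums, thinning to 756942 counts, a correction of GC content and length by the median of 10 bins, the replicate block, that block with the correction, and leaving out each sample. Adding antisense counts and a full-quantile form of the correction were chosen after seeing the data. All 9 members are described, with the genes nearest to each and, from 3 lists, the 2 largest called changes in each direction. The members and lists were chosen with earlier results of these data known. The edgeR steps were tested on simulated data. The markers of peripheral neurons are not reported here.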

Additional observations from a re-analysis of the deposited data

Results flagged for a closer look

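For 3 members, the change in dKO cells differed from the change in WT cells by a test of the difference itself, a contrast of the edgeR fit. From NPCs to day 28 the dKO change minus the WT change was -2.11 for SYNM, -2.37 for GFAP and -2.80 for INA on the log2 scale. Between the passages of NPCs it was -2.47 for SYNM, -2.43 for GFAP and -1.67 for INA. Both sets of differences share the WT NPC and dKO NPC samples. GFAP rests on 6 counts in WT NPCs and 15 counts in dKO NPCs, both of which enter each of its differences.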

How the results depend on the processing

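Of 72 changes of tested members, 23 were called, and 16 of these kept their call in every alternative that tested them. The calls that were lost were NES and VIM in the dKO progression to day 28, NES between dKO passages, SYNM and GFAP at day 28, SYNM at passage 2 and NEFM at passage 4. The full-quantile correction of GC content and length sets a gene's value by its rank within its bin. It left 0 members called in the dKO progression to day 28, 0 between dKO passages and 0 at passage 2. Why NES and VIM lost their calls under it was not tested. No call reversed, and 28 of 1098 values changed sign without a call in either analysis. The number of members called moved as follows. A minimum of 10 counts in every sample, which tests fewer members, left 1 in the WT progression to day 28, 1 in the dKO progression, 0 at passage 2, 2 at passage 4, 1 at day 28, 1 between WT passages and 1 in each difference of changes. A fit of only the samples compared called 5 members in the WT progression, 0 at passage 2 and 5 in the difference of passage changes. A minimum of 1 count in any sample called 1 member in the dKO progression. At passage 2, 0 members were called by adjusted p, 0 with the correction by bin medians and 2 after thinning. Leaving out a sample gave 1 to 4 members in the dKO progression, 0 to 1 at passage 2, 1 to 2 between dKO passages and 3 to 5 in the difference of changes to day 28, where NEFL and NEFM joined without dKO-D28 replicate 2. NEFH, near the count minimum, could not be tested in every alternative.

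With the replicate block, 3 members were called in the WT progression, 2 in the dKO progression and 3 at passage 4, where NEFM lost its call. With the block and the correction together, 0 were called at passage 2. Samples of the groups share only a number, and deviations of same-numbered samples correlated by -0.055 to 0.182 over 15 pairs of groups. The mean INA share in WT-D28 was 24.4% in the report, 16.8% without division by length, 19.0% by coding length and 24.6% after thinning. Over all members and groups, 112 shares under these alternatives moved by more than the SD of the reported share, and 50 did not. The minimum of 1 count in any sample moved the median of all genes from 0.04 to 0.16 in the WT progression, and no other alternative moved a median by over 0.1. Depth limits GFAP, NEFH and PRPH most. Over all genes, a minimum of 10 counts in every sample lowered the genes called from 3281 to 1909 in the WT progression, 961 to 350 in the dKO progression, 595 to 199 at passage 2, 3001 to 1656 at passage 4, 3250 to 1882 at day 28, 2663 to 1461 between WT passages, 1322 to 588 between dKO passages, 3119 to 2000 in the difference of changes to day 28 and 2595 to 1592 in that of passage changes. A minimum of 1 count in any sample raised the first 7 of these to 5609, 2684, 1177, 5131, 6037, 4482 and 2939. At passage 2, 199 genes were called by adjusted p, 281 in a fit of only the samples compared and 945 without WT NPC replicate 2.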
